A study of Mus musculus with 6 samples.

Results

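The genes described here are 40 interferon-stimulated genes and interferon-inducible immunity GTPases of mouse gastrocnemius, the main calf muscle. They were chosen by name, as the rows of the deposited expression table whose gene symbol is on a fixed list, and all 40 were found among its 46504 features. Members were chosen with earlier results of these data known. The list holds 31 genes usually assigned to the type I interferon response and 9 GTPases usually assigned to interferon gamma, namely the guanylate-binding proteins Gbp2, Gbp3, Gbp6 and Gbp7 and the immunity-related GTPases Irgm1, Irgm2, Igtp, Iigp1 and Tgtp2. PolyA RNA was sequenced from 3 control and 3 restraint libraries of wild type mice, and both groups carry the label of day 4. Restraint meant confinement in a 50 mL tube for 3 hours every 4 days, and the labels leave unclear how many sessions preceded sampling. The series asks how skeletal muscle and neuroinflammation interact under this stress. Strain, sex, age and time of day at sampling are not given in the sources used here. The labels do not state that the libraries are from separate mice. If they are not, p-values reflect library-to-library spread of technical origin alone. Total read counts ran from 44290720 to 51125779 per library. Fibre genes such as Actn3, at a mean of 4285 TPM (transcripts per 1000000, a unit scaled for transcript length) over the 6 libraries, identify the tissue as muscle.

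Interferons are cytokines that put cells into an antiviral state. Type I interferons bind the receptor chains IFNAR1 and IFNAR2, and the kinases JAK1 and TYK2 then activate a complex that holds STAT2 and IRF9 and binds the interferon-stimulated response element (ISRE) in target promoters. Interferon gamma binds IFNGR1 and IFNGR2, and signalling through JAK1 and JAK2 acts at the gamma-activated site (GAS). The induced proteins block viral RNA and protein synthesis, sense foreign nucleic acid, or, in the case of the GTPases, coat and disrupt vacuoles that hold intracellular pathogens. The division is not strict: Irf1, Irf8 and Ifi47 in the first class also respond strongly to interferon gamma, Ifi47 is itself an immunity-related GTPase, and many GTPases also respond to type I interferon. In skeletal muscle these genes are known for their high expression in inflammatory myopathies, and outside inflammation they are held at low levels.

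Interferons act through elements in promoters, and 4 promoters are shown because their genes had the smallest p-values of each class among members whose promoter holds a motif. RefSeq promoter windows on GRCm38.p6 run from 250 bases before to 50 bases after an annotated start. They were available for 29 of the 40 members. Mx1, Mx2, Oas2, Zbp1, Dhx58, Usp18, Rtp4, Parp14, Ifi27l2a, Gbp6 and Iigp1 were not matched. Some members have more than 1 window. The start used for the Gbp3 window shown is not the gene start, 142560016. Another Gbp3 window, chr3:142560106-142560405, holds neither core described next. Capitals mark the ISRE core, GAAA and GAAA with NN between them, and the GAS core TTCNNNGAA, each searched on both strands, with N any base. Windows are written along the gene's strand, which is plus for Gbp7, Gbp3 and Stat2 and minus for Isg15.
Gbp7, chr3:142530086-142530385: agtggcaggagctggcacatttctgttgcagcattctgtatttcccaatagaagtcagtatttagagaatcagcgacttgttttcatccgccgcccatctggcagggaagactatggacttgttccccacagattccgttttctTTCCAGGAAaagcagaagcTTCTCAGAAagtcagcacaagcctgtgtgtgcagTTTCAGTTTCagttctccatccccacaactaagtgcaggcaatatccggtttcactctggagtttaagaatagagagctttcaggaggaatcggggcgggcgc
Gbp3, chr3:142559794-142560093: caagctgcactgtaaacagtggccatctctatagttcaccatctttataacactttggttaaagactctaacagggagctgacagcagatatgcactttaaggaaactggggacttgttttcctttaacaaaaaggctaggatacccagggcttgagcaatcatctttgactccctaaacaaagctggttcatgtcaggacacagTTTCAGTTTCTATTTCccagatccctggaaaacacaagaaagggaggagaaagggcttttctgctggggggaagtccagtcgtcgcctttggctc
Isg15, chr4:156200769-156201068: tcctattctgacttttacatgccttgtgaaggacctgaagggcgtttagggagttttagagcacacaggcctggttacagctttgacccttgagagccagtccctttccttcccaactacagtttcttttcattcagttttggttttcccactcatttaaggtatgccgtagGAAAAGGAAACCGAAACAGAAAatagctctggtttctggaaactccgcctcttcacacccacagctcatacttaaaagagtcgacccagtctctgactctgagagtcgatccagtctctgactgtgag
Stat2, chr10:128270248-128270547: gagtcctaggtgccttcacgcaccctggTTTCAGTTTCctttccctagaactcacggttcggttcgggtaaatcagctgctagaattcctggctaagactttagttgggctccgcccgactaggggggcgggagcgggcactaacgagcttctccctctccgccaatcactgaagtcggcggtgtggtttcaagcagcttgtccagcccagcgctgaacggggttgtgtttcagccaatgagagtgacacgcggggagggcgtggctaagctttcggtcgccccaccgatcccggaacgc
The Gbp7 window holds 2 GAS cores, starting 106 and 87 bases before the gene start, and 1 ISRE core starting 53 bases before it. The same reverse-strand ISRE core, TTTCAGTTTC, stands 45 bases before the start used for the Gbp3 window and 222 bases before the gene start of Stat2. In Gbp3 it overlaps a second core, and in Isg15 3 overlapping cores start 78, 72 and 66 bases before the gene start.

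Across members the ISRE core was found for 18 of 29 and the GAS core for 11 of 29, against 3.44% and 8.3% of all 32851 windows in the table. Members were counted by gene, with a core in any of their windows, and the background by single windows. The shares are thus not on equal terms. All 7 GTPases with a window held the ISRE core, as did 11 of 22 type I genes. A GAS core followed by an ISRE core with no overlap and at most 10 bases between them was present in 14 of the 32851 windows, and 4 of these belong to members. These 4 stretches, chosen after the windows were searched, are shown for their shared layout, with every core in capitals.
Tgtp2, chr11:49064273-49064293, minus strand: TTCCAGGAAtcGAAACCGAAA
Igtp, chr11:58199511-58199531, plus strand: TTCTAGGAActGAAACTGAAA
Irgm2, chr11:58214902-58214922, plus strand: TTCCAGGAActGAAACTGAAA
Bst2, chr8:71537587-71537608, minus strand: TTCCAGGAAAATGAAACTGAAA
In the 3 GTPases the cores are 2 bases apart. Bst2 holds 1 GAS core and 2 ISRE cores, of which the first overlaps the GAS core and the second overlaps the first and stands 3 bases from the GAS core. A match of letters is a description of the sequence and does not show that a factor binds there.

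Restraint muscle had less RNA of 2 immunity GTPases. Gbp7, a guanylate-binding protein of the host defence against vacuolar pathogens, stood at 13.9, 12.0 and 12.5 CPM in controls 1 to 3 and at 6.43, 6.96 and 5.14 in restraint 1 to 3. CPM are counts per 1000000 reads with edgeR's TMM factors, and libraries are listed in this order throughout. Every restraint library lay below every control library. Means of 12.8 ± 1.02 CPM in controls and 6.17 ± 0.938 CPM in restraint (SD, n = 3 each) show that Gbp7 fell by 51.8%, or by 1.05 ± 0.15 (SE) on the log2 scale. The edgeR quasi-likelihood test gave an adjusted p of 0.0172 over all features. Iigp1, the immunity-related GTPase Irga6, stood at 7.23, 5.65 and 7.16 CPM in controls and 3.28, 2.85 and 2.36 in restraint. The groups again did not overlap, and with means of 6.68 ± 0.891 CPM in controls and 2.83 ± 0.460 CPM in restraint Iigp1 fell by 57.6%, or by 1.24 ± 0.18 as log2, with an edgeR adjusted p of 0.0182. On GRCm38, Gbp7 (NCBI gene 229900) lies on chromosome 3 from 142530336 to 142550151 and Iigp1 (NCBI gene 60440) on chromosome 18 from 60373616 to 60392634.

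These were the calls among 38 members with enough reads to be tested, 5.26% of them. Of 15448 features tested 1.83% passed, 0.563% as lower in restraint and 1.26% as higher, and no member passed as higher. Among all features, 7.63% were lower and 7.98% higher at an unadjusted edgeR p under 0.05, and 50.9% had negative values. All restraint libraries lay below all controls for 11.1% of features and above them for 10.6%. Counts given below for each list are to be read beside these shares. DESeq2 called 4 members lower, adding Gbp3 and Isg15, where it called 2.03% of all features lower and 3.31% higher. The calls depended on single libraries. Without control 1 neither gene passed (edgeR adjusted p of 0.108 for Gbp7 and 0.113 for Iigp1), nor without restraint 3 (0.0578 and 0.0738); without control 2 Gbp7 missed (0.0512), and without restraint 2 Iigp1 missed (0.0545). The log2 fold change stayed between -1.15 and -0.93 for Gbp7 and between -1.36 and -1.12 for Iigp1 with each library left out. In the deposited TPM, which are per length, Gbp7 stood at 4.33, 3.21 and 4.38 TPM in controls and 2.95, 2.34 and 1.53 in restraint. These TPM also did not overlap, and their adjusted p by limma was 0.246 with a pseudocount of 1.

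**Figure D1:**
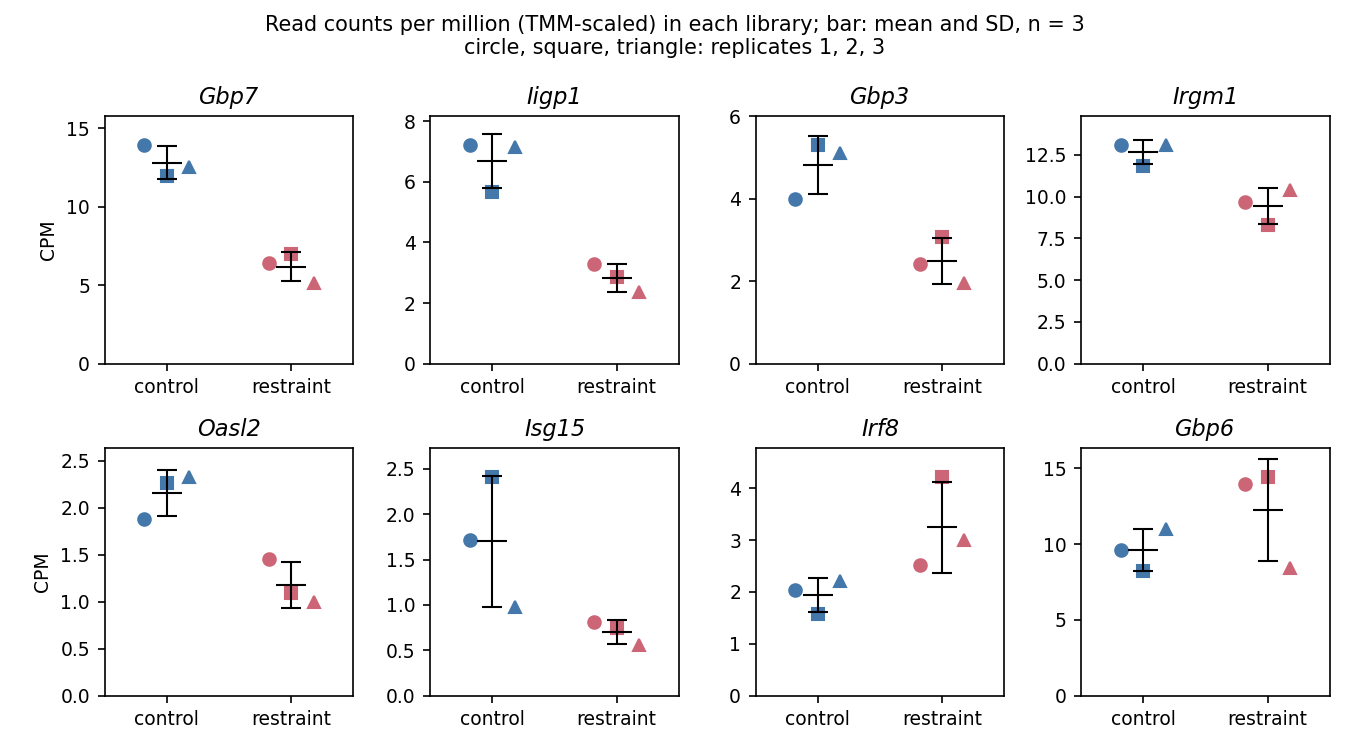
TMM-scaled CPM (vertical axes from 0) of 8 members in each of the 3 control (blue) and 3 restraint (red) libraries, with replicates 1, 2 and 3 as circles, squares and triangles and the mean ± SD as bars. The groups do not overlap for Gbp7, Iigp1, Gbp3, Irgm1, Oasl2 and Isg15 (lower in restraint) and Irf8 (higher), and overlap for Gbp6; of these genes Gbp7 and Iigp1 passed the test over all features.

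The other 3 guanylate-binding proteins on the list did not pass by edgeR, DESeq2 called 1 of them, Gbp3, and their signs differed. Gbp3, a neighbour of Gbp7 on chromosome 3, stood at 4.00, 5.31 and 5.12 CPM in controls and 2.43, 3.06 and 1.97 in restraint. All restraint values lay below all control values (log2 fold change -0.95 ± 0.21, edgeR adjusted p = 0.0629, DESeq2 adjusted p = 0.00343). Gbp2, which targets the vacuoles of parasites and bacteria and had the highest level per length of the 4 (4.49 TPM on average over the 6 libraries), stood at 7.17, 6.70 and 7.60 CPM in controls and 6.16, 5.93 and 4.07 in restraint, a log2 fold change of -0.41 ± 0.18 (edgeR adjusted p = 0.313, no overlap). Gbp6 differed in sign, with 9.64, 8.21 and 11 CPM against 13.9, 14.4 and 8.40 and a log2 fold change of 0.35 ± 0.21 (adjusted p = 0.484). Its restraint 1 and 2 libraries stood above all controls, and restraint 3 lay within the control range.

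Reads of Gbp6 may be shared with Gbp10, a near-identical copy on chromosome 5: of the 50-base words in annotated Gbp6 transcripts, 62.3% also occur in Gbp10 transcripts. Gbp10 had 6.92, 7.24 and 7.01 CPM against 11.3, 10.9 and 5.99, a log2 fold change of 0.42 ± 0.22. With the counts of both summed into 1 feature, the value was 0.38 with an adjusted p of 0.426. The other tested genes of the chromosome 5 cluster, Gbp4 and Gbp9, had log2 fold changes of -0.86 ± 0.24 and -0.61 ± 0.17, neither past edgeR's test, and DESeq2 called Gbp4. The 4 tested genes of the chromosome 3 cluster, Gbp7, Gbp3, Gbp2 and Gbp5, were all negative, from -1.05 to -0.28.

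Of the 4 listed immunity-related GTPases other than Iigp1 none passed by edgeR or DESeq2, 3 were lower at an unadjusted p under 0.05, and all 4 log2 fold changes were negative. Irgm1, a regulator of the effector GTPases and of autophagy, had the highest level per length of the 5 on the list (8.89 TPM on average) and stood at 13.1, 11.8 and 13.1 CPM in controls and 9.68, 8.29 and 10.4 in restraint. These groups did not overlap (log2 fold change -0.42 ± 0.13, edgeR adjusted p = 0.152). Tgtp2, an effector that loads onto parasite vacuoles, stood at 4.92, 2.34 and 4.61 CPM in controls and 1.89, 2.16 and 2.31 in restraint. Control 2 was close to the restraint libraries although the groups did not overlap (log2 fold change -0.90 ± 0.28, edgeR adjusted p = 0.164).

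Of the 50-base words of Tgtp2 transcripts, 89.8% also occur in Tgtp1, so the split of reads between these copies is uncertain. Tgtp1 itself had 3.72, 2.19 and 4.44 CPM against 1.53, 1.89 and 1.67, and the pair summed had 8.64, 4.53 and 9.05 CPM in controls against 3.42, 4.05 and 3.98 in restraint, with a log2 fold change of -0.96 and an adjusted p of 0.108. Igtp and Irgm2, which lie close together on chromosome 11, had -0.38 ± 0.15 and -0.22 ± 0.18; Igtp is an effector-regulating GTPase also known as Irgm3. The Igtp groups did not overlap, and those of Irgm2 did. On chromosome 18, Gm4951, a further interferon-inducible GTPase near Iigp1, had 0.408, 0.585 and 0.239 CPM against 0.0449, 0.107 and 0.0925, a log2 fold change of -2.27 ± 0.56 at low counts (adjusted p = 0.0892). F830016B08Rik, which lies between Gm4951 and Iigp1, was counted far more deeply, at 95.7, 52.7 and 77.3 CPM against 64.8, 69.2 and 49.0. Its groups overlapped, with a log2 fold change of -0.30 ± 0.21 (edgeR adjusted p = 0.562).

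**Figure D2:**
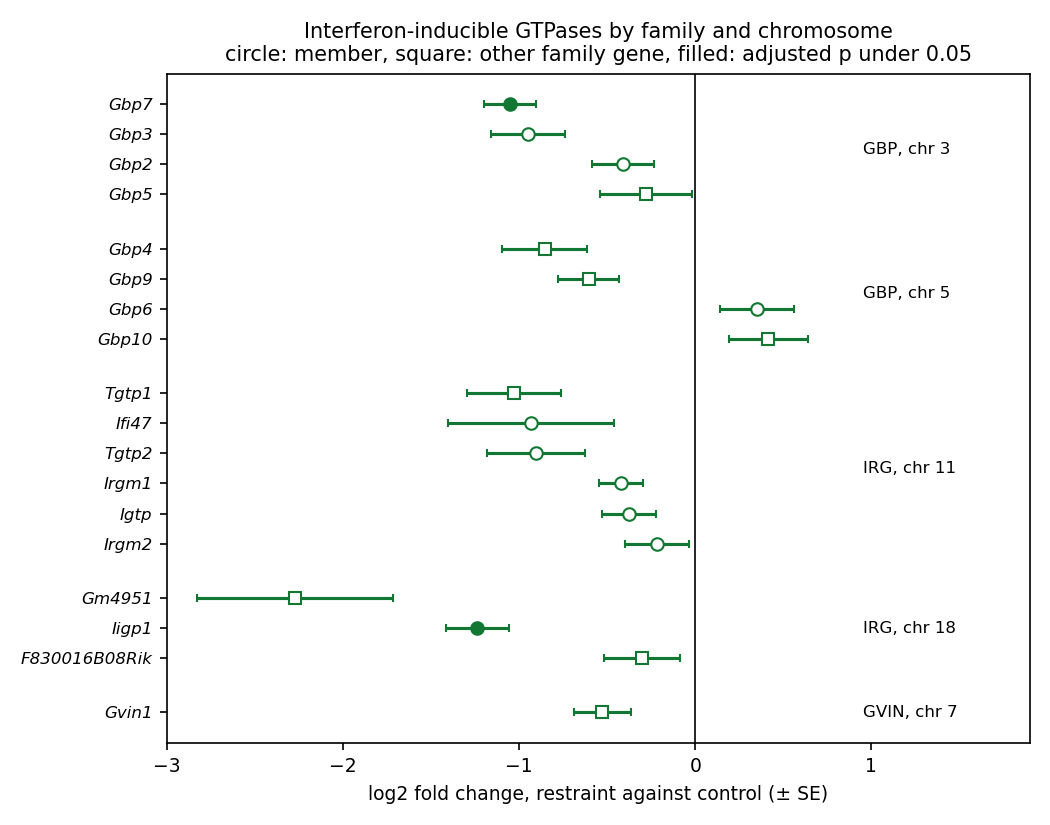
Log2 fold change of restraint against control with its SE (horizontal axis) for 18 tested interferon-inducible GTPases, grouped by family and chromosome; circles are members, squares other genes of the families and filled symbols passed the test over all features. The 4 GBP genes of chromosome 3, the 6 IRG genes of chromosome 11 and the 3 of chromosome 18 have negative values, while Gbp6 and Gbp10 of chromosome 5 stand at 0.35 and 0.42.

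None of the 5 transcription factors of the response passed by edgeR or DESeq2, 1 was lower and 1 higher at an unadjusted p under 0.05, and 4 of 5 values were negative. Stat2, the subunit of the type I complex that carries its activation domain, stood at 3.88, 3.65 and 4.39 CPM in controls and 3.19, 2.25 and 2.48 in restraint. Its groups did not overlap (log2 fold change -0.59 ± 0.19, edgeR adjusted p = 0.173). Irf9, the DNA-binding partner in that complex, stood at 3.51, 4.75 and 4.57 CPM in controls and 2.92, 3.51 and 3.31 in restraint, with restraint 2 at the level of control 1 and a log2 fold change of -0.40 ± 0.17. Irf1, induced by interferon gamma and the factor with the highest level per length (5.82 TPM), stood at 8.09, 7.46 and 8.59 CPM in controls and 7.59, 6.13 and 5.44 in restraint, a log2 fold change of -0.33 ± 0.16. Its restraint 1 lay inside the control range. Irf7, which amplifies type I interferon production, had -0.43 ± 0.21.

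Irf8, a factor of macrophages and dendritic cells, was the type I class member with the highest log2 fold change. It stood at 2.04, 1.58 and 2.203 CPM in controls and 2.52, 4.22 and 3.01 in restraint, so that all restraint values exceeded all control values. The log2 fold change was 0.74 ± 0.24 (edgeR adjusted p = 0.185) and was 0.50 without restraint 2. Macrophage markers were also highest in restraint 2: Lyz2, lysozyme, stood at 27.0, 19.8 and 18.6 CPM in controls and 23.2, 90.5 and 43.5 in restraint, and Cd68 at 1.41, 1.24 and 1.12 CPM in controls and 2.29, 13.6 and 11.5 in restraint. The log2 fold change was positive for 13 of 13 macrophage markers (median 0.69), and Cd68 passed as higher by edgeR (adjusted p = 0.044) but missed the threshold with any library other than restraint 1 left out (adjusted p of 0.109 to 0.198). Their summed level was 75.7 to 97.1 TPM in controls and 88.0, 304 and 141 TPM in restraint 1 to 3, and none was at 0. The part of these cells in the values of Irf8 was not tested. In bulk tissue, fewer cells of a type and less RNA per cell cannot be told apart, and this holds for every gene here.

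Of 5 genes for proteins that bind viral RNA or block translation none passed by edgeR or DESeq2, 1 was lower at an unadjusted p under 0.05, and all 5 values were negative. Eif2ak2, the kinase PKR that halts translation on double-stranded RNA, stood at 3.70, 4.36 and 3.58 CPM in controls and 2.99, 2.70 and 2.52 in restraint. Its groups did not overlap, with a log2 fold change of -0.50 ± 0.17 (edgeR adjusted p = 0.19). Ifit1, which binds viral messenger RNA that lacks a methylated cap, stood at 2.001, 1.44 and 1.56 CPM in controls and 1.39, 0.750 and 1.32 in restraint, a log2 fold change of -0.53 ± 0.29. Restraint 2 was the lowest library, and restraint 1 and 3 lay just under control 2. Ifit3, a partner of Ifit1, stood at 4.06, 4.56 and 4.11 CPM in controls and 4.16, 3.41 and 3.29 in restraint with overlapping groups and a log2 fold change of -0.23 ± 0.16. Ifit2 and Ifit3b had -0.14 ± 0.15 and -0.078 ± 0.17. Of the Ifit3 words of 50 bases, 51.2% also occur in Ifit3b, so their reads may be divided arbitrarily; summed, the pair had a log2 fold change of -0.16.

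The OAS family, oligoadenylate synthetases that activate the nuclease RNase L on double-stranded RNA and their relatives without that activity, was counted at low levels. Oasl2 stood at 1.88, 2.27 and 2.33 CPM in controls and 1.46, 1.09 and 0.995 in restraint, with no overlap and a log2 fold change of -0.87 ± 0.23 (edgeR adjusted p = 0.116). Oas2 stood at 0.837, 1.75 and 0.661 CPM in controls and 0.449, 0.493 and 0.324 in restraint. Control 2 was far above the other libraries, and the log2 fold change of -1.34 ± 0.43 was the lowest of the 38 members (adjusted p = 0.177). Oas1a stood at 0.592, 0.731 and 0.257 CPM in controls and 0.337, 0.279 and 0.347 in restraint, with control 3 below all restraint libraries and -0.70 ± 0.45. Oasl1 had -0.091 ± 0.57, a value whose sign turned with single libraries left out.

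Isg15, a ubiquitin-like protein that is attached to other proteins in the antiviral state, stood at 1.72, 2.41 and 0.973 CPM in controls and 0.809, 0.750 and 0.555 in restraint. Restraint values lay below all control values, of which control 3 was the nearest. The difference of -1.26 ± 0.36 on the log2 scale did not pass by edgeR (adjusted p = 0.137) and did by DESeq2 (0.0417). Usp18, the protease that removes Isg15 and also restrains the type I receptor, stood at 1.78, 1.88 and 0.973 CPM in controls and 0.899, 1.16 and 1.25 in restraint, with control 3 among the restraint values and a log2 fold change of -0.48 ± 0.30. The RNA sensor Ifih1, encoding MDA5, stood at 3.63, 2.92 and 3.29 CPM in controls and 3.66, 2.55 and 2.45 in restraint and had -0.19 ± 0.21. Dhx58, encoding the regulator LGP2, stood at 0.408, 0.463 and 0.422 CPM in controls and 0.517, 0.600 and 0.393 in restraint with overlapping groups and 0.23 ± 0.33. Zbp1, a sensor of Z-form nucleic acid, had too few reads to be tested, with 0.204, 0.317 and 0.257 CPM in controls and 0.202, 0.0857 and 0.139 in restraint.

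The 4 tested antiviral effectors of the Mx and membrane group had negative values, with none past edgeR or DESeq2 and 1 lower at an unadjusted p under 0.05. Bst2, tetherin, which holds budding virus at the cell surface, was the second most abundant member per length (15.4 TPM). It stood at 9.49, 9.60 and 6.74 CPM in controls and 6.81, 5.72 and 4.67 in restraint, a log2 fold change of -0.58 ± 0.19 (edgeR adjusted p = 0.19), and the groups overlapped only by restraint 1 and control 3. Rtp4 stood at 2.39, 2.31 and 2.59 CPM in controls and 1.98, 1.99 and 1.504 in restraint, with no overlap and -0.41 ± 0.20. Mx2, a dynamin-like antiviral GTPase, stood at 0.265, 0.487 and 0.165 CPM in controls and 0.157, 0.214 and 0.301 in restraint with overlapping groups and -0.42 ± 0.52, and its relative Mx1 had at most 0.122 CPM in any library and was not tested. Rsad2, viperin, had -0.069 ± 0.22.

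The 7 remaining members of the type I class all had negative log2 fold changes, from -1.05 to -0.27; none passed by edgeR or DESeq2, and 3 were lower at an unadjusted p under 0.05. Ifi44 stood at 0.960, 0.755 and 0.698 CPM in controls and 0.607, 0.321 and 0.231 in restraint, with no overlap and -1.05 ± 0.40 (edgeR adjusted p = 0.25). Trim30a, a ubiquitin ligase family member that dampens inflammatory signalling, stood at 2.61, 2.17 and 2.24 CPM in controls and 1.96, 1.46 and 1.25 in restraint, and Xaf1, which counters inhibitors of apoptosis, at 2.19, 2.14 and 1.85 CPM in controls and 1.69, 1.33 and 1.34 in restraint. Neither overlapped, with -0.59 ± 0.23 and -0.50 ± 0.21. Ifi27l2a, the most abundant member per length (22.3 TPM), stood at 4.33, 7.82 and 8.57 CPM in controls and 6.65, 4.67 and 3.56 in restraint, where control 1 lay below restraint 1 and 2, and had -0.48 ± 0.30. Ifi47 had -0.93 ± 0.47, Parp14, an ADP-ribosyltransferase, -0.37 ± 0.18 and Ifi35 -0.27 ± 0.15, each with overlapping groups.

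**Figure D3:**
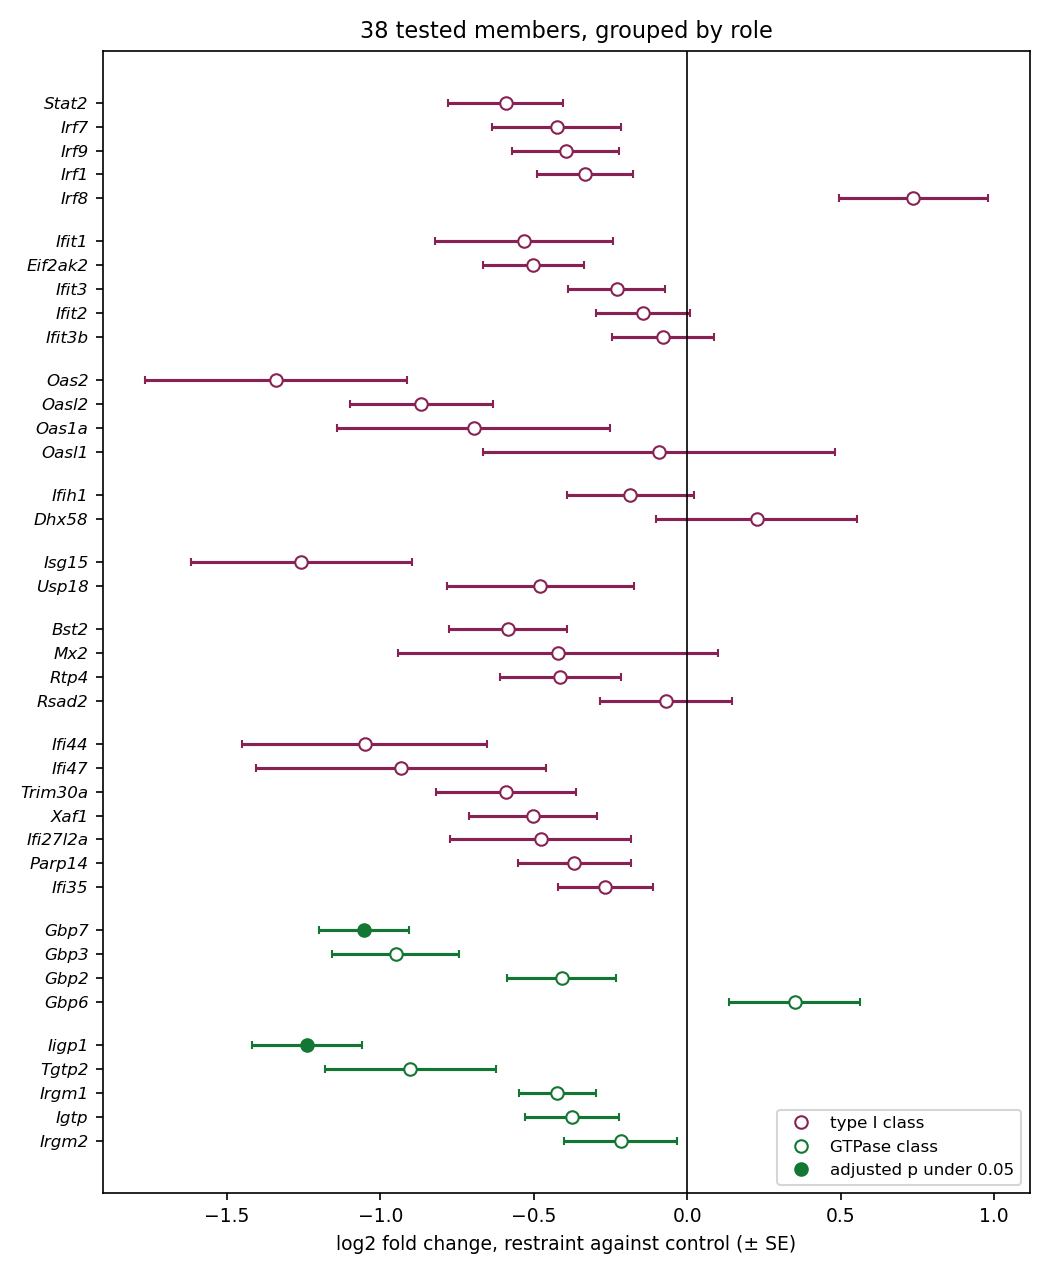
Log2 fold change of restraint against control with its SE (horizontal axis) for the 38 tested members, grouped by role, with the type I class in purple and the GTPase class in green; filled symbols passed the test over all features. Of the 38 values 35 are negative, the exceptions being Irf8, Dhx58 and Gbp6, and the 2 filled symbols are Gbp7 and Iigp1.

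Set side by side, the type I class and the GTPase class had nearly the same median log2 fold change, -0.43 over 29 tested genes and -0.42 over 9, against a median of -0.0053 over all 15448 features. Negative values were found for 27 of 29 and 8 of 9, 92.1% of members together, where 50.9% of all features were negative. All restraint libraries lay below all controls for 11 of 29 and 7 of 9 members (47.4% together), against 11.1% of all features, and above all controls for 1 member, Irf8, against 10.6%. An unadjusted edgeR p under 0.05 with a lower level in restraint was reached by 9 of 29 and 7 of 9 (42.1% together; 7.63% of all features), and with a higher level by 1 of 29 and 0 of 9 (7.98% of all features). Calls by edgeR after adjustment were 0 of 29 and 2 of 9, and by DESeq2 1 of 29 (Isg15) and 3 of 9 (Gbp7, Iigp1 and Gbp3). The GTPases were counted more deeply: the median member had a mean of 332 reads per library and an SE of 0.18, against 121 reads and an SE of 0.22 in the type I class. Whether the classes differ was not tested. The list was chosen with earlier results of these data known, so these shares describe it and are no test of it.

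By library, the median member of the type I class stood 0.23, 0.25 and 0.13 above its own mean over the 6 libraries in controls 1 to 3 on the log2 CPM scale, and at -0.028, -0.25 and -0.34 in restraint 1 to 3. The GTPase medians were 0.26, 0.11 and 0.42 in controls and -0.17, -0.30 and -0.34 in restraint. Restraint 3 was the lowest library for 18 of 29 type I members and 5 of 9 GTPases, and restraint 1 was the nearest to controls in both classes. In summed TPM the type I class had 91.8 to 114 in controls and 61.3 to 87.5 in restraint, and the GTPase class 32.4 to 51.4 and 27.8 to 35.1, where control 2 lay among the restraint libraries.

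**Figure D4:**
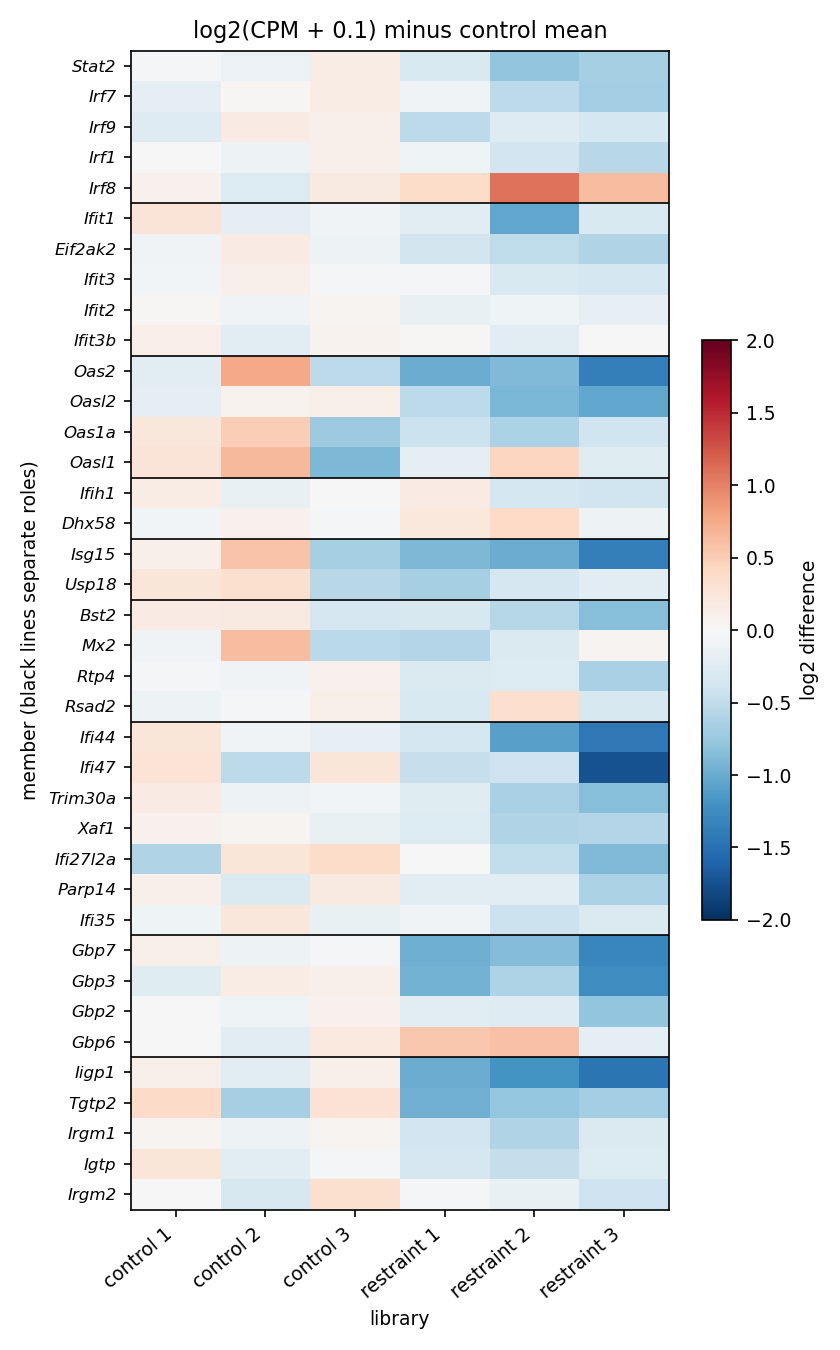
Log2(CPM + 0.1) of each tested member (rows, grouped by role) in each library (columns) minus the member's mean over the 3 controls, from blue (lower) to red (higher). Most rows turn blue in the restraint columns and most strongly in restraint 3, with Irf8 red in all 3 restraint libraries and Gbp6 red in restraint 1 and 2.

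Upstream of these genes, 8 interferon genes were looked up. Ifna1, Ifna2, Ifna4, Ifnb1, Ifnk, Ifng, Ifnl2 and Ifnl3 had 0 reads in all 6 libraries. Other interferon genes were not looked up. A count of 0 allows up to 3 reads, or 0.0551 to 0.0731 CPM per library, for counting error only. Of 9 receptors and signal transducers tested none passed by edgeR, 2 reached an unadjusted p under 0.05, 1 of them higher, and DESeq2 called 1, Jak2. Jak2, the kinase of the gamma receptor, had 37.3, 36.9 and 48.1 CPM against 57.7, 57.9 and 55.4 and a log2 fold change of 0.48 ± 0.12 (edgeR adjusted p = 0.1), and Jak1 had 0.27 ± 0.13. The Jak2 groups did not overlap, with restraint higher.

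Of 11 sensors and adaptors tested none passed by edgeR, DESeq2 called 1 (Irf5), and 5 of 11 values were negative. At an unadjusted edgeR p under 0.05, 1 was lower and 1 higher, against 7.63% and 7.98% of all features. Irf5, a factor downstream of Toll-like receptors, had 1.08 ± 0.27 (edgeR adjusted p = 0.0909), Ikbke, an IRF-activating kinase, -1.19 ± 0.40, and Ddx58, the RNA sensor RIG-I, -0.37 ± 0.17. Irf5 was, like Irf8, highest in restraint 2, at 6.71 CPM against 2.02 to 2.29 CPM in controls. None of 9 inhibitors passed by edgeR or DESeq2, and 0 reached an unadjusted p under 0.05; Adar, the RNA-editing enzyme, had -0.38 ± 0.23, Pias1, an inhibitor of cytokine signalling, -0.17 ± 0.10 and the phosphatase gene Ptpn2 0.21 ± 0.17. Medians of these 3 lists were 0.069, 0.11 and 0.13.

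Other interferon-stimulated genes had a median of -0.32, and none of 25 tested passed by edgeR. At an unadjusted p under 0.05, 6 were lower and 1 higher, and DESeq2 called Cxcl9 and Cxcl10. The chemokines of the list differed in sign. Cxcl9, induced by interferon gamma, had 1.10, 1.63 and 1.28 CPM against 0.427, 0.129 and 0.602 and a log2 fold change of -1.79 ± 0.47 (edgeR adjusted p = 0.106), while Cxcl10, induced by either interferon and by NF-kB, had 0.143, 0.195 and 0.184 CPM against 0.270, 1.20 and 1.41 and 2.45 ± 0.60 (adjusted p = 0.0907). Neither overlapped between groups, and the restraint 2 and 3 libraries carried the high Cxcl10 values. Dtx3l, a ubiquitin ligase that partners PARP9, had -0.50 ± 0.14. Of 8 other immunity GTPases tested 7 were negative with a median of -0.57, none passed by edgeR, and DESeq2 called Gbp4 and Tgtp1. At an unadjusted edgeR p under 0.05, 5 were lower, against 7.63% of all features.

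Markers of cells that respond to or make interferon were compared in the same libraries. T and NK cell markers were nearly absent. Of 10, none had enough reads to be tested, Cd3g, Ncr1 and Klrb1c had 0 reads in every library, and their summed level was 0.0651 to 0.339 TPM in controls and 0.101 to 0.123 TPM in restraint. Of 6 markers of plasmacytoid dendritic cells, which make type I interferon, 5 were tested and 4 had negative values (median -0.43, none past edgeR or DESeq2, 1 lower at an unadjusted p under 0.05). Bst2 and Irf7 of that list are members here, the list's sum of 2022 to 2139 TPM in controls and 2122 to 2262 TPM in restraint was nearly all Cox6a2, which muscle also expresses, and Siglech, a defining marker, stood at 0.327, 0.317 and 0.257 CPM in controls and 0.112, 0.364 and 0 in restraint. The 3 tested of 6 markers of other dendritic cells were positive (median 1.005, none past edgeR, DESeq2 or voom, 1 higher at an unadjusted p under 0.05). Their sums were 13.04 to 15.02 TPM in controls and 13.3, 31.9 and 19.7 TPM in restraint. Most of this was H2-Aa, at 12.69 to 13.95 TPM in controls and 12.03, 29.65 and 18.7 TPM in restraint. Clec9a had reads only in control 1. The 10 endothelial markers had a median log2 fold change of -0.13 with none past edgeR or DESeq2. At an unadjusted edgeR p under 0.05, 2 were lower and 1 higher, against 7.63% and 7.98% of all features. Summed levels were 689 to 968 TPM in controls and 681 to 821 TPM in restraint. Most of this was Fabp4, at 565 to 810 TPM in controls and 575 to 692 TPM in restraint. Restraint lay below all controls for 2 of the 10, Tie1 and Emcn (-0.42 ± 0.13 and -0.39 ± 0.13), and above all controls for 1, Cldn5 (0.39 ± 0.15). Of all features, 11.1% lay below and 10.6% above in this way. Ighm, the heavy chain of immunoglobulin M and the single B cell marker of 6 with enough reads to be tested, fell with a log2 fold change of -1.80 ± 0.32 (edgeR adjusted p = 0.0305). It missed the threshold without control 1, control 2, restraint 2 or restraint 3, with adjusted p of 0.0553 to 0.117. The summed level of the 6 was 40.1, 31.6 and 97.6 TPM in controls and 19.8, 16.7 and 16.0 TPM in restraint. Most of it was Ighm, at 39.3, 31.5 and 96.2 TPM in controls and 19.0, 16.4 and 11.9 TPM in restraint. Of the untested markers, mean CPM in controls and restraint were 0.101 and 0.491 for Igkc and 0.109 and 0.106 for Cd79a. They were 0.152 and 0.0894 for Cd79b. The Igkc mean in restraint rested on restraint 3, at 1.32 CPM, against 0.112 and 0.0429 CPM in restraint 1 and 2. The defining markers Cd79a and Ms4a1 were at 0 in some libraries. Tendon genes had negative values for 7 of 7 (median -0.96), with none past edgeR and 3 called by DESeq2. At an unadjusted edgeR p under 0.05, 5 were lower, against 7.63% of all features. Their sums overlapped, at 98.3 to 157 TPM in controls and 49.2 to 129 TPM in restraint. The part of these cells and tissues in the values of the members was not tested.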

How the data were processed

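For each of 6 libraries the authors deposited a whole read count, an FPKM and a TPM per gene, as named in the file headers. The submitters' processing notes name the build GRCm38 (mm10) and the tools StringTie 2.1.3b, HISAT2 2.1.0, Trimmomatic and bcl2fastq 2.20.0. The use of strand and the treatment of reads that match several genes are not given in the sources used here, which bears on near-identical copies.

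Tests on counts used edgeR 4.0.16 under R 4.3.3 (filterByExpr, minimum count 10 and total 15; TMM; glmQLFTest, two-sided; Benjamini-Hochberg over 15448 features, threshold 0.05). SE is the log2 fold change over the square root of F. Unannotated loci, which carry identifiers, were kept. Coordinates and promoters are from RefSeq tables on GRCm38.p6; 50-base words are from GENCODE transcripts. Simulated counts with known changes were used to check the fits.

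Members and lists were chosen with earlier results of these data known. Full values are given for called members and, per role, the 3 smallest p-values and the highest TPM; context lists name up to 3 genes by p-value. Gbp6, the remaining members, genes that share reads or lie beside members, the joint GAS and ISRE stretches and single markers were named after their values were seen.

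Alternatives were DESeq2 1.42.0 (size factors, and its test), upper quartile factors, library totals, other filters, limma 3.58.1 voom, limma on log2 TPM or FPKM plus a pseudocount of 1 (TPM also 0.1; at least 1 in 3 libraries), a replicate block, leaving out unannotated and mitochondrial features, and each library left out; summing near-identical copies was added after seeing the data. Every pair of libraries within a group differed beyond counting noise (chi-square over its degrees of freedom at least 27.2). Some genes of the context and marker lists are not reported here.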

Additional observations from a re-analysis of the deposited data

How the results depend on the processing

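Of 15448 features 282 passed by edgeR, 2 of them members (Gbp7 and Iigp1), and 17 members had an unadjusted p under 0.05. DESeq2's own test called 809 features and 4 members, adding Gbp3 and Isg15 (2.03% of features lower). On log2 FPKM plus 1 the counts were 153 features, 0 members and 5 unadjusted, on log2 TPM plus 1 they were 122, 0 and 9, and on log2 TPM plus 0.1 they were 112, 0 and 7, with 82.1% of calls higher against 69.1%. The type I median was -0.24 on both scales with a pseudocount of 1, which shrinks low values. Members without a value of at least 1 in 3 libraries were left out on the FPKM and TPM scales. The member counts there are thus out of fewer than 38, and the type I medians cover fewer than 29 genes. Iigp1 was under the minimum on the FPKM scale. With each library left out, 16 to 350 features, 0 to 2 members and 11 to 19 unadjusted members were found (features: 16, 51 and 174 without controls 1, 2 and 3, and 350, 98 and 55 without restraint 1, 2 and 3; no member without control 1 or restraint 3, and 1 without control 2 or restraint 2), and class medians ran from -0.52 to -0.39 (type I) and from -0.51 to -0.40 (GTPase). The fit with the replicate number as a block called 60 features and 0 members (adjusted p of 0.0747 for Gbp7 and 0.0762 for Iigp1). Same-numbered libraries did not deviate together (correlations of 0.014, -0.201 and -0.209), so the numbers are not taken as pairs. Other normalizations, filters, voom, the removal of unannotated and mitochondrial features and the summing of copies called the same 2 members.

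Signs of weak log2 fold changes turned. Oasl1 had 0.14 by voom and from -0.53 to 0.36 with libraries left out, positive without control 1, control 2, restraint 1 or restraint 3. Mx2 ran from -0.73 to 0.064, positive without control 2, and Rsad2 from -0.33 to 0.053, positive without restraint 1 or restraint 3. The median type I member holds 121 reads per library, which limits its precision. The causes were not tested.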
